A study of Rattus norvegicus with 12 samples.

Results

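The insulin-like growth factor (IGF) system was followed through 10 genes. They were the ligands Igf1 and Igf2, the receptor Igf1r and the binding proteins Igfbp1 to Igfbp7. They were picked by symbol, with earlier results of these data known. All 10 were measured, each by 1 row, among 18166 named genes and 36685 rows of the array. IGF1 and IGF2 are small secreted proteins that signal for growth and survival through IGF1R, a receptor tyrosine kinase. Most of the ligand in plasma and tissue is held by binding proteins, which limit or prolong its access to the receptor and are themselves cut by proteases. In the kidney, IGF1 is known for its effects on blood flow, filtration and tubular growth, and the collecting duct of the medulla is a known site of its mRNA in the rat.

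The tissue came from Sprague-Dawley rats, all male and aged 7 to 9 weeks, in which the inferior vena cava had been tied off between both renal veins, so that only the left kidney was congested. On day 3, RNA of cortex and outer medulla was taken from the congestive left kidney and from the right kidney, which served as control, with 3 arrays for each region and condition (12 in all). The control kidneys thus belong to operated rats, and no kidney of a sham-operated rat is among these arrays. The methods speak of medulla, while the labels say outer medulla, which is the name used here. Values are log2 expression, so that a difference of 1 is a doubling, and p-values were adjusted across the 18166 genes, 0.05 being the threshold. Levels were compared within a gene and never between genes, since probes differ.

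The regions carried their markers in the control kidneys. Slc5a2 of the early proximal tubule, Nphs1 of the podocyte and Slc12a3 of the distal convoluted tubule were higher in cortex by 3.01, 1.81 and 3.65. Slc12a1, Umod and Ptger3 of the thick ascending limb were higher in outer medulla by 2.13, 1.17 and 1.67. Slc7a13, a transporter of the late proximal tubule in the outer stripe, spread widely among control cortex arrays, at 8.65, 10.46 and 6.44, against 12.99 to 13.04 in control outer medulla. Array medians lay between 6.02 and 6.09, and arrays of the same group correlated across rows at 0.988 to 0.991.

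The bases upstream of the start are shown for Igf1, Igfbp4 and Igfbp1, the 3 members whose change differed most between the regions. Each window holds the 250 bases before the start in RefSeq, on build GRCr8, read 5′ to 3′ on the strand of the gene. They lie at chr7:24172282-24172531 on the plus strand for Igf1, chr10:84491221-84491470 on the plus strand for Igfbp4 and chr14:86261027-86261276 on the plus strand for Igfbp1. Capitals mark every match, on either strand, to 5 short motifs. The TATA box was searched as TATAAA, the core of forkhead FOXO factors as AAACAA, that of hypoxia-inducible factors as ACGTG, the GC box as GGGCGG and the core of TEAD factors as GGAATG. No other motifs were searched.
Igf1: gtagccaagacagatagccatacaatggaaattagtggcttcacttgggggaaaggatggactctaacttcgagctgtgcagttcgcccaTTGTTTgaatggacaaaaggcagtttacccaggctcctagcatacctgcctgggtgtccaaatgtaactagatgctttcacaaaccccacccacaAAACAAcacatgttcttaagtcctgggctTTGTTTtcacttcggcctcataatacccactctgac
Igfbp4: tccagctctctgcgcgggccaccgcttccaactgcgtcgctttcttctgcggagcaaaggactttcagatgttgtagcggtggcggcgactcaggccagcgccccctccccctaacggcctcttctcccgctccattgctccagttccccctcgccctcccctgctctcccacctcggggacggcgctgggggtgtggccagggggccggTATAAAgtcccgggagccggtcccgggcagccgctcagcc
Igfbp1: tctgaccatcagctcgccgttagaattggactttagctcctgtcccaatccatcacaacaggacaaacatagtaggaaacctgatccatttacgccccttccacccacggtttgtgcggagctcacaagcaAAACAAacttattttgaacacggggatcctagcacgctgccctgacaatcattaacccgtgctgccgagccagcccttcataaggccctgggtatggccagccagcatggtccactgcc
The Igf1 window held AAACAA 3 times, its first bases lying 160, 65 and 36 before the start. Igfbp1 held it once, at 119, and Igfbp4 held TATAAA once, at 40. AAACAA occurred in 18.1% of 33469 rat promoter windows of this length and TATAAA in 12.9%, and such matches describe letters only. In the other members, ACGTG was met 3 times in Igf1r and 2 times in Igfbp2, where neighbouring matches on opposite strands overlap, and 1 time each in Igf2 and Igfbp7. GGGCGG was met 4 times in Igfbp7 and 1 time each in Igf2, Igf1r and Igfbp2, and GGAATG 1 time in Igf2. Igfbp3, Igfbp5 and Igfbp6 had no match to the 5 motifs. ACGTG occurred in 16.6%, GGGCGG in 30.5% and GGAATG in 12.1% of windows.

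**Figure D1:**
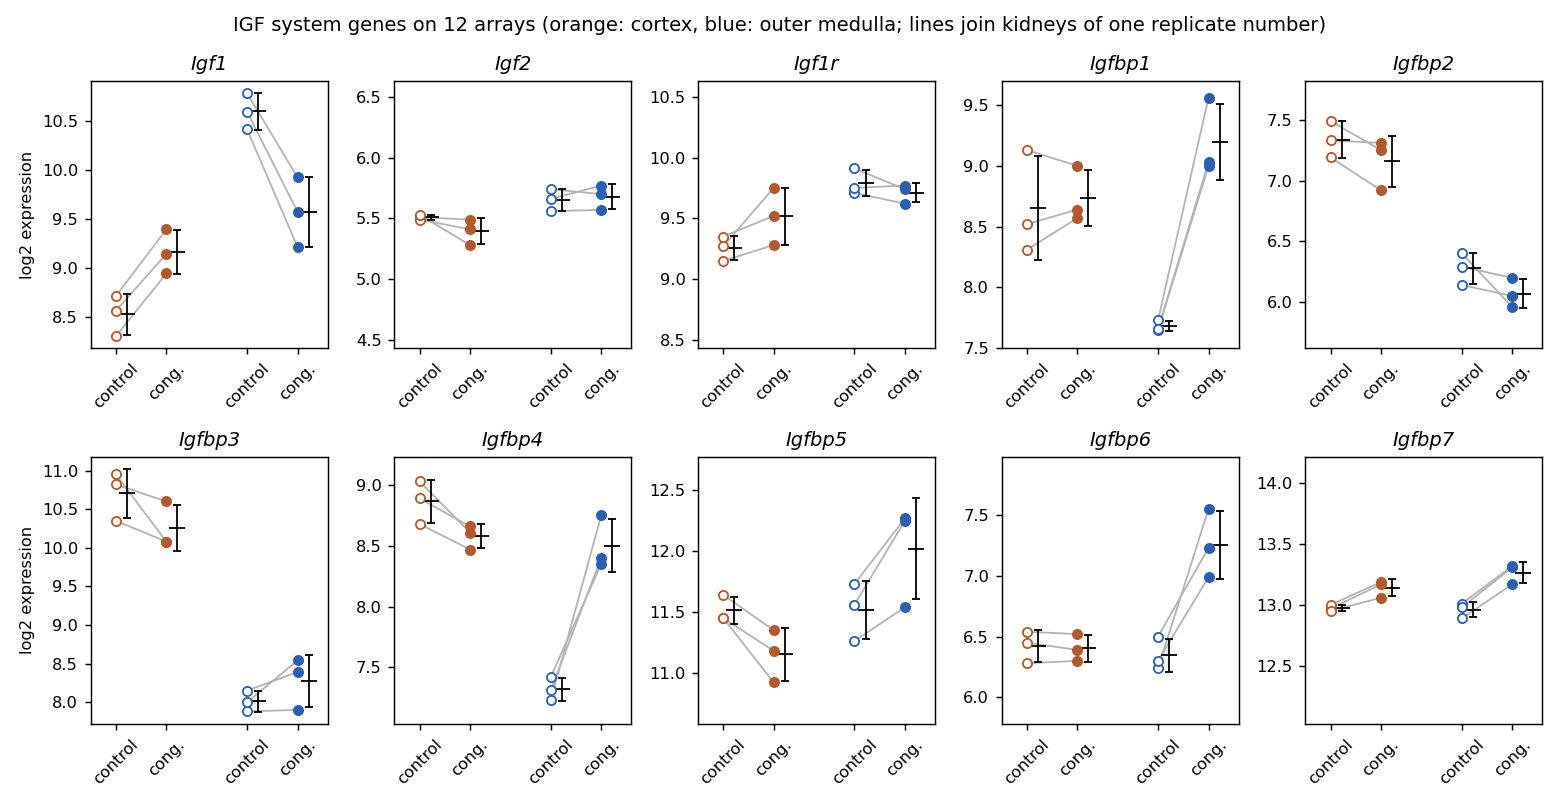
Log2 expression of the 10 IGF system genes on each of 12 arrays, with open points for control and filled points for congestive kidneys (cong.), lines joining kidneys with the same replicate number, and black bars for mean and SD (n = 3). Vertical scales differ between panels. The Igf1 group means are 8.52 and 9.16 in cortex, then 10.59 and 9.57 in outer medulla.

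More members passed the test in outer medulla than in cortex. In outer medulla Igfbp1, Igfbp4, Igfbp5, Igfbp6 and Igfbp7 rose and Igf1 fell, 6 of 10 members, while 23.2% of all genes passed the test (11.8% higher and 11.3% lower). In cortex 1 of 10 members passed, Igf1, which was higher, and 0 were lower, where 11.6% of all genes passed (7.98% higher and 3.64% lower). The 3 congestive and 3 control arrays did not overlap for 5 members in each region. In cortex 2 of these were higher and 3 lower (34% of all genes, 17.2% higher and 16.8% lower), in outer medulla 4 and 1 (36%, 18.4% and 17.5%). The median change of the 7 binding proteins was 0.50 in outer medulla and -0.18 in cortex, beside -0.01 and -0.02 over all genes. In whole tissue, fewer cells of a type and less RNA per cell cannot be told apart.

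**Figure D2:**
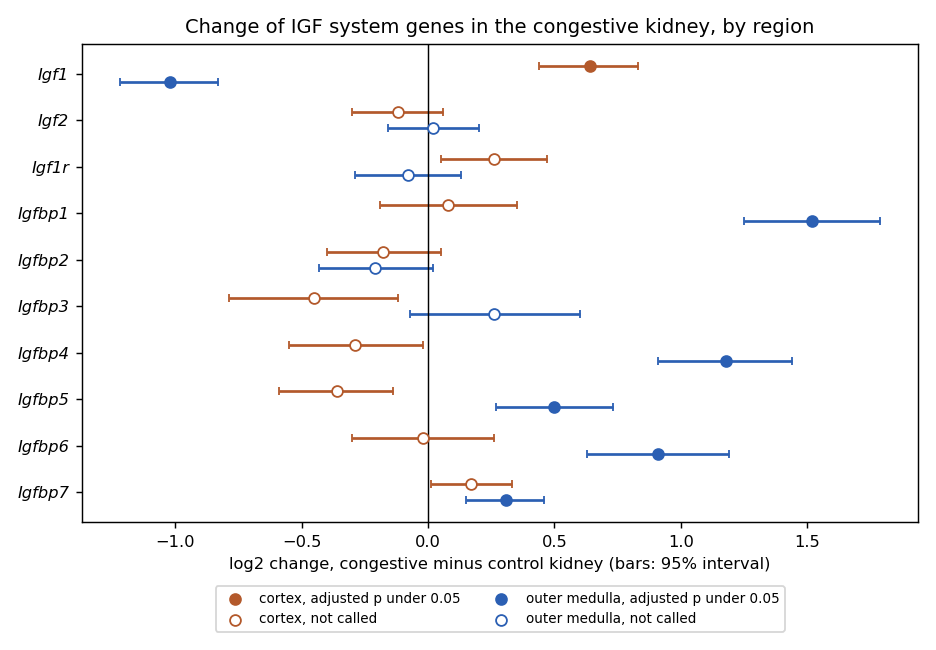
Log2 change of each member, congestive minus control kidney, in cortex (orange) and outer medulla (blue), with 95% intervals from limma and filled points where the adjusted p was under 0.05. Igf1 lies right of zero in cortex (0.64) and left of it in outer medulla (-1.02), and the binding proteins called lie right of zero in outer medulla.

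Igf1, the main growth hormone-dependent ligand, moved in opposite directions in the regions. In cortex it stood at 8.71, 8.56 and 8.30 in control kidneys 1, 2 and 3 and at 9.39, 9.14 and 8.94 in the congestive kidneys. The groups did not overlap, and each congestive kidney exceeded its partner. The rise was 0.64 (SE 0.08, 95% interval 0.44 to 0.83), or 1.55-fold, with an adjusted p of 0.003. In outer medulla the controls read 10.78, 10.59 and 10.41 and the congestive kidneys 9.92, 9.57 and 9.21. Again the groups were apart, with congestive kidneys lower in each pair. The mean fell by 1.02 (SE 0.08), or 2.03-fold, with an adjusted p of 0.00014. The change in outer medulla minus that in cortex was -1.66 (SE 0.12, adjusted p = 0.0048), 29th in size among all genes. By the methods' t-test, run here without the pairs, the adjusted p was 0.14 in cortex and 0.089 in outer medulla.

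Igf2, the fetal growth ligand, did not pass in either region. Its group means were 5.51 ± 0.02 in control cortex, 5.39 ± 0.10 in congestive cortex, 5.65 ± 0.09 in control outer medulla and 5.68 ± 0.10 in congestive outer medulla (SD, n = 3). The 2 cortical groups did not overlap, yet the change of -0.12 missed the threshold (adjusted p = 0.38), and that in outer medulla was 0.02 (adjusted p = 0.88). The receptor Igf1r read 9.26 ± 0.10 and 9.52 ± 0.24 in control and congestive cortex, a change of 0.26 (95% interval 0.05 to 0.47, adjusted p = 0.11). Its outer medullary means were 9.79 ± 0.11 and 9.71 ± 0.08 (change -0.08, adjusted p = 0.61).

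Igfbp1, a secreted binding protein known to respond to insulin, fasting and hypoxia in liver, had the largest rise of the members. In outer medulla it stood at 7.65, 7.73 and 7.66 in the controls and at 9.00, 9.56 and 9.03 in the congestive kidneys. The congestive values lay far above the controls, which were close together. This was a rise of 1.52 (SE 0.12, 95% interval 1.25 to 1.79), or 2.87-fold, with an adjusted p of 0.00011. In cortex the controls spread over 8.31, 8.52 and 9.13 and the congestive kidneys over 8.57, 8.64 and 9.00. Those groups overlapped, with a change of 0.08 (adjusted p = 0.71), and the regions differed by 1.44 (SE 0.17, adjusted p = 0.011).

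Igfbp4, which holds IGF away from its receptor until the protease PAPP-A cuts it, rose in outer medulla from 7.31, 7.23 and 7.42 to 8.40, 8.75 and 8.35. Every congestive kidney lay above every control. The rise was 1.18 (SE 0.11, 95% interval 0.91 to 1.44), or 2.26-fold, with an adjusted p of 0.00033. In cortex it read 9.03, 8.68 and 8.89 in the controls and 8.61, 8.47 and 8.66 in the congestive kidneys. All congestive values were lower there, although by little, and the change of -0.29 missed the threshold (adjusted p = 0.15). The difference between regions was 1.46 (SE 0.16, adjusted p = 0.011).

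Igfbp6, a binding protein with a preference for IGF2, stood close together in control cortex (6.42 ± 0.13), congestive cortex (6.40 ± 0.11) and control outer medulla (6.35 ± 0.14). In congestive outer medulla it read 7.55, 7.23 and 6.99, above all 3 controls at 6.24, 6.50 and 6.30. It rose there by 0.91 (SE 0.12), or 1.88-fold, with an adjusted p of 0.0014 (0.071 by the methods' t-test), against -0.02 in cortex (adjusted p = 0.93). The regional difference was 0.93 (adjusted p = 0.044).

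Igfbp5 binds to extracellular matrix as well as to IGF. Outer medullary controls read 11.56, 11.73 and 11.26 and congestive kidneys 12.25, 12.27 and 11.54. These groups overlapped through replicate 3, although each congestive kidney exceeded its partner. The rise was 0.50 (SE 0.10), or 1.41-fold (adjusted p = 0.0085), and it was lost with no replicate block (adjusted p = 0.082), without replicate 1 (0.095) and without replicate 2 (0.06). In cortex it went from 11.64, 11.45 and 11.45 to 11.35, 10.92 and 11.18. Congestive values were lower without overlap, at a change of -0.36 (adjusted p = 0.052).

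Igfbp7, a matrix-associated protein that binds IGF weakly and is used as a urinary marker of tubular stress, changed least among the calls. In outer medulla it moved from 13.01, 12.98 and 12.89 to 13.32, 13.31 and 13.17. The groups were apart, and the rise was 0.31 (SE 0.07), or 1.24-fold (adjusted p = 0.014). The call was lost without replicate 1, 2 or 3 (adjusted p = 0.11, 0.12 and 0.074) and by the methods' t-test (0.069). It was lost too when all rows were tested (adjusted p = 0.05). Cortical values were 12.97, 13.00 and 12.95 against 13.17, 13.19 and 13.06, a change of 0.17 (adjusted p = 0.15).

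Igfbp3, the main carrier of IGF in plasma, had every pair lower in cortex and every pair higher in outer medulla. Its cortical values were 10.82, 10.95 and 10.35 in the controls and 10.60, 10.08 and 10.08 in the congestive kidneys. Its outer medullary values were 8.15, 7.88 and 8.00 against 8.39, 7.90 and 8.54. Both sets of groups overlapped. The changes were -0.45 (adjusted p = 0.086) and 0.26 (adjusted p = 0.25), and their difference of 0.72 missed the threshold (adjusted p = 0.14). Igfbp2, another carrier, read 7.34 ± 0.15 and 7.16 ± 0.21 in control and congestive cortex. Its outer medullary means were 6.28 ± 0.13 and 6.07 ± 0.12, with changes of -0.18 and -0.21 (adjusted p = 0.29 and 0.18).

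The change differed between regions for 5 of 10 members, Igf1, Igfbp1, Igfbp4, Igfbp5 and Igfbp6, while 1.62% of all genes passed this test. In 4 of them the difference was positive (0.804% of all genes) and in 1 negative (0.815%). The count fell to 0 without replicate 1, to 0 without replicate 2 and to 2 without replicate 3. Over all genes it went from 294 to 0, 9 and 43 in the same settings. Igfbp5 and Igfbp6 were also lost with the replicate block over both regions (adjusted p = 0.056 and 0.062). The estimates of these 5 members held their direction, as with Igf1 at -1.72 and -1.69 without replicates 1 and 2 (adjusted p = 0.062 and 0.056).

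Cortex and outer medulla were also compared within the control kidneys. Here 6 of 10 members differed (21.5% of all genes), 4 being higher in cortex (10.1%) and 2 lower (11.4%). Igfbp3, Igfbp4, Igfbp2 and Igfbp1 were higher in cortex by 6.48-fold, 2.92-fold, 2.08-fold and 1.97-fold (adjusted p = 2.2e-06, 2.9e-06, 5.2e-05 and 0.0044). Igf1 and Igf1r were higher in outer medulla by 4.2-fold and 1.45-fold (adjusted p = 6.6e-06 and 0.0047). So mRNA of Igf1 and Igf1r stood higher in control outer medulla and that of these 4 binding proteins in control cortex. Igf2 did not pass (-0.15, adjusted p = 0.25).

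In the congestive kidneys 5 of 10 members differed between regions (18.7% of all genes), 2 being higher in cortex (9.73%) and 3 lower (8.96%). Igfbp3 and Igfbp2 were still higher in cortex, by 3.94-fold and 2.13-fold (adjusted p = 5.3e-05 and 8.9e-05). Igfbp5 and Igfbp6 were higher in outer medulla by 1.83-fold and 1.81-fold (adjusted p = 0.0071 and 0.00088), beside cortex minus outer medulla of -0.01 and 0.08 in the controls. The Igfbp5 call was lost without replicate 1 or 2 (adjusted p = 0.11 and 0.13). Igf2 was lower in cortex by a small margin (-0.28, adjusted p = 0.029), which was lost without replicate 1, 2 or 3 (adjusted p = 0.16, 0.076 and 0.3). The Igf1 gap, cortex minus outer medulla, was -0.41 (adjusted p = 0.15) with overlapping groups, against -2.07 in the controls, and that of Igfbp4 was 0.08 (adjusted p = 0.73) against 1.54. These comparisons share arrays with those of congestion, so the values stand side by side and do not add evidence.

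**Figure D3:**
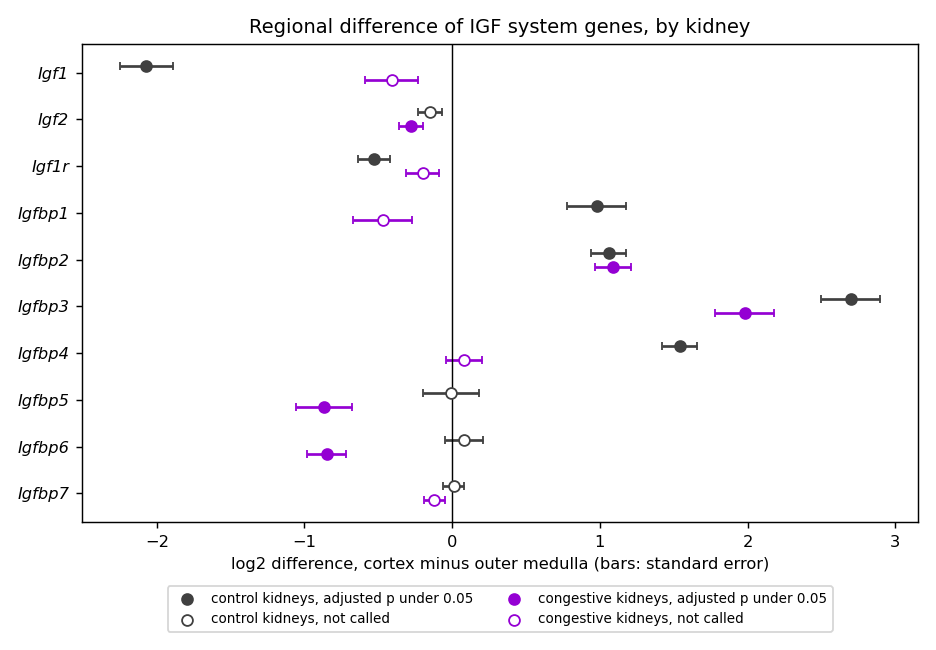
Log2 difference between cortex and outer medulla for each member in control kidneys (grey) and congestive kidneys (purple), with standard errors from limma and filled points where the adjusted p was under 0.05. The Igf1 point moves from -2.07 to -0.41 and the Igfbp4 point from 1.54 to 0.08.

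Values of the region markers stand beside these changes. In congestive outer medulla, where Igfbp1 and Igfbp4 rose, 0 of 3 podocyte and 0 of 3 distal convoluted tubule markers were called higher and 1, Podxl, was called lower (-0.43, adjusted p = 0.0059). Nphs1 changed by -0.03 (adjusted p = 0.87), Slc12a3 by -0.51 (adjusted p = 0.35) and Slc5a2 by -0.45 (adjusted p = 0.28). Slc12a3 and Slc5a2 were higher in pair 3 (0.33 and 0.40) and fell most in pair 2 (-1.72 and -1.34). Igfbp1 and Igfbp4 rose most in pair 2 (1.84 and 1.51), while Igf1 fell most in pair 3 (-1.19). Wt1 of the podocyte lay above the controls in all 3 pairs without overlap, at a change of 0.17 (adjusted p = 0.33). In congestive cortex, where Igf1 rose, 3 of 5 thick ascending limb markers fell, Umod by 1.85, Kcnj1 by 0.62 and Cldn16 by 0.32 (adjusted p = 0.00017, 0.0055 and 0.045). Ptger3 rose by 0.45 (adjusted p = 0.013), and Slc12a1 and Slc7a13 changed by -0.23 and -0.36 (adjusted p = 0.11 and 0.52). The thick ascending limb sums were 12.55 to 12.75 in control and 11.67 to 11.88 in congestive cortex. In outer medulla 3 of the 5 fell as well, with sums of 14.14 to 14.22 against 13.61 to 13.83. In congestive cortex Slc7a13 read 7.94, 9.24 and 7.30, with replicate 2 highest as in control cortex. Igf1 was highest in replicate 1 in both control and congestive cortex. Whether the cells of these markers had a part in the changes of Igf1, Igfbp1 and Igfbp4 was not tested.

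Most markers of interstitial cells moved with congestion in both regions. Of 11 macrophage markers 10 rose in cortex and 11 in outer medulla, and their summed level in cortex was 11.52 to 11.76 in control and 12.76 to 13.01 in congestive kidneys. The outer medullary sums were 11.78 to 12.00 and 13.09 to 13.41. Of 10 fibroblast and pericyte markers 7 and 8 rose, with cortical sums of 11.40 to 12.01 against 12.88 to 13.34 and outer medullary sums of 11.98 to 12.25 against 13.56 to 14.03. Among those that passed in neither region, Cspg4 changed by -0.01 in cortex and 0.03 in outer medulla (adjusted p = 0.95 and 0.88). Rgs5 changed by -0.05 and -0.01 (adjusted p = 0.79 and 0.97). Of 6 collecting duct markers 5 fell in cortex and 4 in outer medulla, with outer medullary sums of 12.40 to 12.77 against 11.81 to 12.33. Of 7 proximal tubule markers 0 passed in cortex and 1 fell in outer medulla, where congestive sums ran from 13.50 to 14.37 against 14.50 to 14.53. The part of these cells in the changes of Igf1 and the binding proteins was not tested.

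The other genes of the pathway were taken from 6 lists, of which 54 genes were measured. Cortical tests called 8 of these higher and 1 lower, and outer medullary tests 13 and 7, beside 11.6% and 23.2% of all genes. Of 4 receptors and carriers, 1 passed, Igf2r, which clears IGF2 to lysosomes. It rose in outer medulla by 0.33 (adjusted p = 0.012) with -0.23 in cortex (adjusted p = 0.082).

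Among 9 proteases of binding proteins and their inhibitors, the cortex had 2 that rose and 1 that fell (11.6% of all genes passed). The outer medulla had 3 that rose (23.2% of all genes passed). Adam12, a metalloprotease that cuts IGFBP3 and IGFBP5, rose by 1.18 in cortex (adjusted p = 0.00042). Its outer medullary rise was 2.13 (adjusted p = 1.8e-05), and the regions differed by 0.96 (adjusted p = 0.019). Its outer medullary values were 7.22, 7.60 and 6.99 in the controls and 9.50, 9.85 and 8.86 in the congestive kidneys, well apart. Pappa2, which cuts IGFBP3 and IGFBP5, read 6.39, 6.22 and 6.61 in control cortex and 5.41, 5.01 and 5.36 in congestive cortex. It fell there by 1.15 (adjusted p = 0.00048) without overlap, while the change in outer medulla had a 95% interval of -0.22 to 0.22 (adjusted p = 0.99). Pappa2 was already low in outer medulla, at 4.91, 4.93 and 5.32 in the controls and 4.94, 5.10 and 5.11 in the congestive kidneys. The regional difference of 1.14 (adjusted p = 0.013) thus sets cortex against a region where control values lay below those of control cortex. Htra1, a serine protease of the matrix, rose by 0.86 in outer medulla (adjusted p = 0.0018) and Prss23 by 0.46 and 0.43 (adjusted p = 0.027 and 0.02). Pappa itself, the protease of IGFBP4, changed by -0.19 and 0.05 (adjusted p = 0.28 and 0.8).

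Of 8 genes of the growth hormone axis, 2 rose in cortex, where 11.6% of all genes passed. In outer medulla 2 rose and 2 fell, where 23.2% of all genes passed. The growth hormone receptor Ghr, through which growth hormone induces Igf1 in liver, read 10.13, 10.03 and 10.30 in control outer medulla and 9.18, 8.43 and 9.36 in congestive outer medulla. It fell there by 1.16 (adjusted p = 0.00065), with no overlap, and its cortical change was -0.36 (adjusted p = 0.12). The difference between regions for Ghr was -0.80 (adjusted p = 0.084), so it was not shown to differ. Socs2, an inhibitor of that receptor, rose by 0.67 and 1.59 (adjusted p = 0.0073 and 6.5e-05), and Socs3 by 1.20 and 1.23 (adjusted p = 0.0032 and 0.0013). Stat5a, a transcription factor downstream, fell by 0.28 in outer medulla (adjusted p = 0.046).

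Of 21 genes of receptor signalling, 2 rose in cortex, where 11.6% of all genes passed. In outer medulla 5 rose and 2 fell, where 23.2% of all genes passed. The adaptor Shc1 rose by 0.53 and 0.67 (adjusted p = 0.0079 and 0.0013) and the kinase subunit Pik3r1 by 0.45 and 0.44 (adjusted p = 0.0082 and 0.0044). Grb10, an adaptor that restrains the receptor, rose in outer medulla by 0.59 (adjusted p = 0.0026), and Pik3cb fell by 0.39 (adjusted p = 0.022). Of 10 related proteins of the CCN and IGFBP-like kind, 2 rose in cortex. In outer medulla 2 rose and 3 fell. Ccn1, a matrix protein with an IGFBP-like domain, rose by 1.06 and 0.86 (adjusted p = 0.00058 and 0.00056). Esm1, a proteoglycan of endothelium, rose by 0.47 in cortex and fell by 0.38 in outer medulla (adjusted p = 0.025 and 0.032), a difference of -0.86 (adjusted p = 0.036). Ccn4 rose in outer medulla by 0.46 (adjusted p = 0.0046) and Vwce fell by 0.67 (adjusted p = 0.0037). The 2 measured mRNA-binding proteins of Igf2 did not pass in either region.

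**Figure D4:**
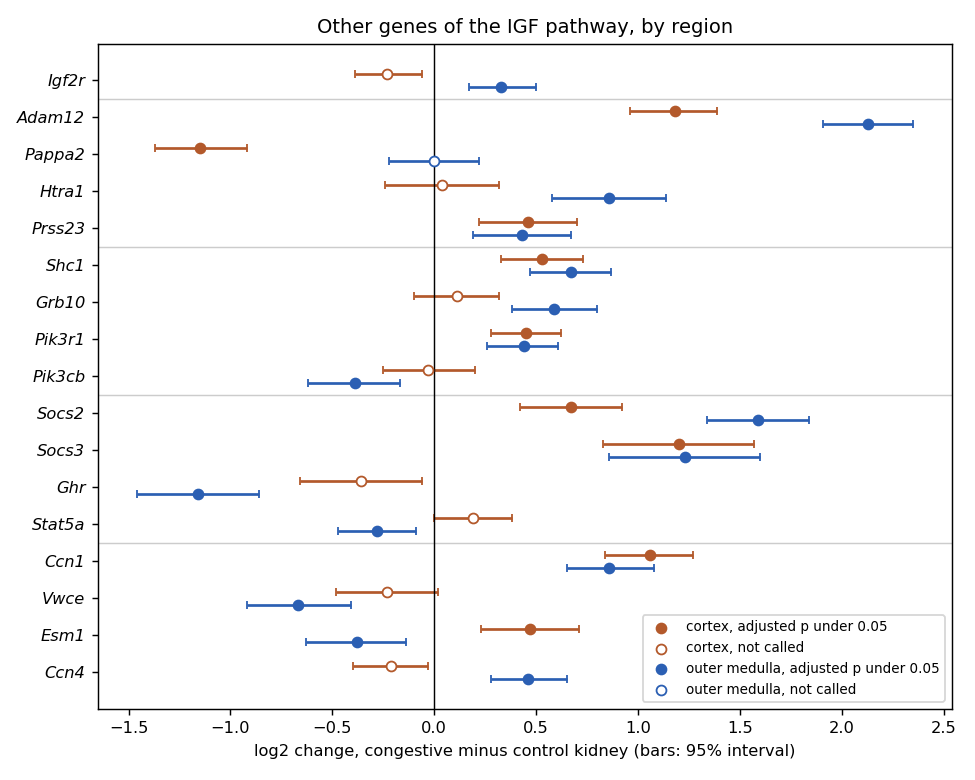
Log2 change of 17 other pathway genes, congestive minus control kidney, in cortex (orange) and outer medulla (blue), with 95% intervals from limma, filled points where the adjusted p was under 0.05, and grey lines between lists. Adam12 reaches 2.13 in outer medulla, Pappa2 stands at -1.15 in cortex, and Ghr at -1.16 in outer medulla.

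As a description over the 12 arrays, which share regions and conditions, the genes most like each called member were ranked by Pearson's r. Igf1 was most like Jdp2, Pld1 and Lpl (0.965, 0.958 and 0.952), Igfbp1 like Rnf145 (0.965) and Igfbp4 like Rab3il1 and Tbx2 (both 0.962). Igfbp5 was closest to Gja4 (0.915), Igfbp6 to Ceacam4 (0.956) and Igfbp7 to Ust and Nrep (both 0.985). Within the family, Igf1 and Igfbp4 ran opposite (-0.90), Igfbp2 and Igfbp3 ran together (0.91), and so did Igfbp5 and Igfbp6 (0.81). Igfbp1 and Igfbp3 are neighbours on chromosome 14 and Igfbp2 and Igfbp5 on chromosome 9, with 0 coding genes between them in RefSeq, yet r was 0.21 for the first pair and -0.59 for the second.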

How the data were processed

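RNA was hybridised to GeneChip Rat Gene 2.0 ST arrays. The authors deposited log2 values, summarised and normalized in Affymetrix Expression Console. The sources used here do not give its version, method or log base, and base 2, as that program gives, was assumed. Raw intensities were not used here. Of 36685 rows, 18511 carried 1 symbol, 575 several and 17599 none, and the brightest row of a symbol was kept. Gene IDs of 18059 genes matched RefSeq.

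Changes were fitted with limma 3.58.1 in R 4.3.3 over 12 arrays, with 6 pair blocks and a congestion term per region (4 residual and 3.96 prior degrees of freedom), two-sided, with Benjamini-Hochberg adjustment. Regions were compared with 4 group means. The script was tested on simulated data. Pairs rest on the replicate numbers of the labels and on the study's comparison of kidneys within rats. Residuals of same-numbered arrays correlated at -0.000, 0.137 and 0.344 in cortex and at 0.169, 0.250 and 0.207 in outer medulla. For replicate 3 in cortex the title's number was used where the source name differs. That a number is the same rat in both regions is not stated. The number of arrays limits precision. The p-values weigh each change against the spread among these kidneys, moderated by a prior from all genes. An exact permutation test of 3 against 3 that ignores the pairs cannot go below 0.1, and one that keeps the pairs has a higher floor.

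The members and lists were chosen with earlier results of these data known. Named were all members, up to 4 called genes per pathway list by size of change, the genes most like each called member, and up to 3 per marker list. Pappa, and Slc7a13, Wt1, Podxl, Kcnj1, Cldn16, Cspg4 and Rgs5 among the markers, were singled out after their values were seen. Summed levels are log2 of the sum of linear values, so the brightest genes of a list weigh most. Alternatives covered the block, moderation, dim genes, rows, scaling, left-out replicates and the methods' t-test. The methods name that test without saying whether it was paired, and leaving out the pairs was a choice made here.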

Additional observations from a re-analysis of the deposited data

Results flagged for a closer look

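The change under congestion differed between outer medulla and cortex, by the interaction term in limma, for Igf1 (-1.66, adjusted p = 0.0048), Igfbp1 (1.44, adjusted p = 0.011), Igfbp4 (1.46, adjusted p = 0.011), Igfbp5 (0.86, adjusted p = 0.029) and Igfbp6 (0.93, adjusted p = 0.044). The calls of Igfbp5 and Igfbp6 were lost with the replicate block over both regions (adjusted p = 0.056 and 0.062) and with arrays centred on their median (0.055 and 0.062). Over all rows of the table they were lost again (0.12 and 0.15), as were those of Igfbp1 and Igfbp4 (0.063 and 0.06), and only Igf1 held. No call of a member was left without replicate 1 or without replicate 2. All values are the change in outer medulla minus that in cortex, on the log2 scale. Igf1 rose in all 3 cortical pairs and fell in all 3 outer medullary pairs. Igfbp3 was lower in each cortical pair and higher in each outer medullary pair, but its difference of 0.72 did not pass the interaction test (adjusted p = 0.14).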

How the results depend on the processing

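No member's called value changed sign in the alternatives run. The count of members changed in cortex, reported as 1, was 4 with trend and robust moderation, 4 with genes above the median level only, 3 with arrays centred on their median, 0 by the methods' t-test after Benjamini-Hochberg and 2 before it, and 1 without each replicate. Beside Igf1, the trend and robust setting added Igf1r, Igfbp5 and Igfbp7, and genes above the median level added Igf1r, Igfbp3 and Igfbp5. Centring added Igfbp3 and Igfbp5. In outer medulla the count, reported as 6, was 2 by the methods' t-test after Benjamini-Hochberg and 4 to 5 with a replicate left out. It was 5 over all rows, where Igfbp7 was lost (adjusted p = 0.05), and 5 above the median level, where Igfbp6 was not tested. Members whose change differed between regions, reported as 5, were 1 (Igf1) over all rows of the table, 3 (without Igfbp5 and Igfbp6) with centred arrays and 0 to 2 with a replicate left out. Regional differences in congestive kidneys, reported as 5, were 2 among genes above the median level, where dim members are not tested, and 3 to 5 with a replicate left out. Those in control kidneys, reported as 6, were 5 among genes above the median level and 6 in the other alternatives. By the methods' t-test, Igf1 missed the threshold in both regions (adjusted p = 0.14 and 0.089). The cause of the other shifts was not tested.

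With no replicate block, the cortex count was 1, the outer medullary count 5 and that of the difference 4, Igfbp5 being lost from both. With the replicate block over both regions, the difference was called for 3 members, Igfbp5 and Igfbp6 being lost (adjusted p = 0.056 and 0.062). Over all genes, the counts reported as 2110, 4207 and 294 became 1934, 4055 and 149 with no replicate block, 2909, 4864 and 785 with trend and robust moderation, 2392, 4159 and 681 above the median level, 1293, 3487 and 34 over all rows, and 3412, 4897 and 197 with centred arrays. The methods' t-test gave 183 and 1040 after Benjamini-Hochberg and 4464 and 4899 before it. Centring moved the median change of all genes in cortex from -0.024 to -0.128. Signal over background was not analysed here.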
